A study of Mus musculus with 2 samples.

Results

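The genes described here encode the proteins of the cytoplasmic ribosome. They were chosen by name: symbols of the form Rpl or Rps with a number, plus Rplp0, Rplp1, Rplp2 and Rpsa, with at least 200 UMIs (unique molecular identifiers, each standing for 1 captured mRNA molecule) over both libraries. Of 32285 genes in the files, 83 symbols match and 82 reach the minimum. Rpl10l, with 1 UMI, does not. The rule used no difference between the libraries. Of the 82 genes, 43 belong to the large subunit, 31 to the small subunit and 3 to the acidic stalk, and 5 are second copies of a main gene (Rps27l, Rpl22l1, Rpl7l1, Rpl39l and Rpl3l), called paralogs here. The lowest total was that of Rpl3l, at 200 UMIs, which is exactly the minimum, and the next lowest was that of Rpl39l, at 811 UMIs.

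Both libraries were made with the 3' v3 kit of 10x Genomics from cells that had not been sorted, taken at the tendon injury of the left hindlimb of male C57BL/6 mice aged 8 to 10 weeks. Every mouse was burned on the back over 30% of its skin and had its Achilles tendon cut, after which bone can form in the soft tissue (heterotopic ossification), and the site was taken 7 days after the injury. The irradiated library came from mice that also received a single X-ray dose of 7 Gy at the injury site, and the control library from injured mice with no radiation. The protocol names arms irradiated on postoperative day 1 or 3 with 10 mice each. Which day the irradiated library stands for, and how many mice were pooled in a library, could not be settled from the sources used here. With 1 library per group, library and radiation cannot be told apart, no test was made, and every interval is an exact 95% interval that covers counting error only.

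A ribosome holds 1 copy of nearly every ribosomal protein, and cells make these proteins in step with ribosomal RNA. Most of their mRNAs begin with a run of pyrimidines, the 5' terminal oligopyrimidine (TOP) tract, through which mTORC1 and LARP1 control their translation. Ribosomal proteins that are not built into ribosomes also act elsewhere: RPL5 and RPL11 bind MDM2, the ligase that degrades p53, and thereby raise p53. A few genes have paralogs with their own control. RPS27L in human cells is a direct target of p53, the main transcription factor of the response to DNA damage, while its near twin RPS27 is not known for that.

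The starts of both copies of 2 paralog pairs are shown because the pairs differ in the results. Each line gives 15 bases before and 15 bases from the RefSeq start (build GRCm38.p6), with a pyrimidine tract in capitals where there is one. A tract was a C followed by at least 4 bases that are C or T, on the transcribed strand, beginning within 5 bases of the start.
Rps27l, chr9:66946071-66946100, plus strand: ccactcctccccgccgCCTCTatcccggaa
Rps27, chr3:90213634-90213663, minus strand: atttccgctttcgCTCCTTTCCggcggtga
Rpl22l1, chr3:28805493-28805522, plus strand: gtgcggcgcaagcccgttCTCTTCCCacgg
Rpl22, chr4:152325711-152325740, plus strand: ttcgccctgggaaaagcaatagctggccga
Of 62 of the 82 genes with a start region in the RefSeq table, 29 (46.8%) had such a tract in at least 1 region, against 21.2% of all 27025 genes in it. The Rpl22 region holds none at this annotated start.

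Rps27l lies at chr9:66946086-66949516 on the plus strand, and RefSeq gives it another start further in. The region of that start holds 2 exact matches to the 10-base p53 consensus motif, which reads the same on both strands. They are in capitals in the stretch shown, because the results turn on Rps27l.
Rps27l, chr9:66946198-66946320, plus strand: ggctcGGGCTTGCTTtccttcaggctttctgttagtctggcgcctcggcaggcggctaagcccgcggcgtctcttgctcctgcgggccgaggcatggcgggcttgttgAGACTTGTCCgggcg
The matches start 117 and 220 bases after the gene's start, and none of its 6 GENCODE M21 transcripts has an exon there. At least 1 such motif was found in the regions of 5 of the 62 genes (8.06%) and of 9.55% of all genes. A match is a stretch of letters and does not show binding.

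The irradiated library held 8302 barcodes with 111753092 UMIs, and the control library 11369 barcodes with 180080740 UMIs. After filtering, 7116 irradiated and 8711 control cells were kept, and 32 barcodes occur in both libraries. The 82 genes gave 13.5% of all UMIs in the irradiated library and 13.5% in the control library. In barcodes above the mitochondrial limit of 10%, which were 6.13% of irradiated and 14.9% of control barcodes, their share was 6.37% and 6.44%. Cells were grouped by clustering without the 82 genes, and clusters were named from marker genes, so names end in "-like". The tendon list came close to the mesenchymal list in cluster 16, and the osteoclast list close to the macrophage list in cluster 4. Both clusters are kept in the larger class. The 5 classes that hold 200 or more cells per library were compared, and 4 smaller classes are shown beside them. One of these, cluster 20, scored highest for the dendritic list, with 7 of its markers up and no rival list. Its top 10 genes hold none of those markers but include Cd74, H2-Aa, Cd83, Cd86 and the T and NK cell marker Klrd1. The cluster is therefore called by its number.

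The share of UMIs that came from the 82 genes ran from 2.50% to 21.2% over the cell classes of the irradiated library, while the libraries differed by at most 2.21 percentage points within a class. In keratinocyte-like cells, the cells of the epidermis, it was 21.2% in the irradiated library (1273 cells) and 19.0% in the control library (2113 cells). In mesenchymal-like cells, which build connective tissue, it was 11.2% in 630 irradiated cells and 11.6% in 2315 control cells. Endothelial-like cells, which line blood vessels, had 10.9% in 318 irradiated cells and 11.7% in 500 control cells. Macrophage and monocyte-like cells had 9.06% in 2690 irradiated cells and 9.99% in 2031 control cells. Neutrophil-like cells had the lowest share, 2.50% in 1269 irradiated cells and 3.67% in 839 control cells. Neutrophils are short-lived, non-dividing cells with few ribosomes, and in both libraries their share was below that of each of the other 8 classes shown.

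Keratinocyte-like and neutrophil-like cells lay at opposite ends of the difference between the libraries as well. On the log2 scale the irradiated-over-control ratio of the share was 0.16 (0.158 to 0.161) in keratinocyte-like cells and -0.55 (-0.57 to -0.54) in neutrophil-like cells. Keratinocyte cluster 24 went the other way (15.5% in irradiated and 16.0% in control cells), and so did keratinocyte-like cells of 5000 to 15000 UMIs, with 17.2% in irradiated and 18.4% in control cells. Those of 15000 UMIs or more had 21.5% in 957 irradiated and 19.1% in 1413 control cells, and the median depth of the class was 25773 UMIs in irradiated and 20883 UMIs in control cells. The ratio was -0.05 in mesenchymal-like, -0.10 in endothelial-like and -0.14 in macrophage and monocyte-like cells, each with an interval that leaves out equality. Among cells of 1000 to 5000 UMIs the irradiated share was above the control share in mesenchymal-like (11.6% and 11.2%) and endothelial-like cells (11.7% and 10.6%). In the 4 smaller classes the share was 14.9% in irradiated and 14.7% in control T and NK-like cells, 12.1% and 12.3% in cluster 20, and 9.35% and 9.29% in Schwann-like cells, irradiated cells first in each pair. Pericyte and smooth muscle-like cells had 8.69% in irradiated and 9.57% in control cells. With the clusters of each class weighted alike in both libraries, the mesenchymal ratio was 0.03 and the neutrophil ratio -0.34. Mesenchymal cluster 9, where the share was 10.4% in irradiated and 10.9% in control cells, holds 51.9% of the irradiated and 17.8% of the control cells of its class. In the other 4 mesenchymal clusters the share was above equality, with ratios from 0.03 to 0.09. The mitochondrial share of UMIs was 3.38% in irradiated and 4.24% in control endothelial-like cells, 2.08% and 3.62% in macrophage and monocyte-like cells, and 4.24% and 4.45% in keratinocyte-like cells, and its part in these ratios was not tested.

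**Figure D1:**
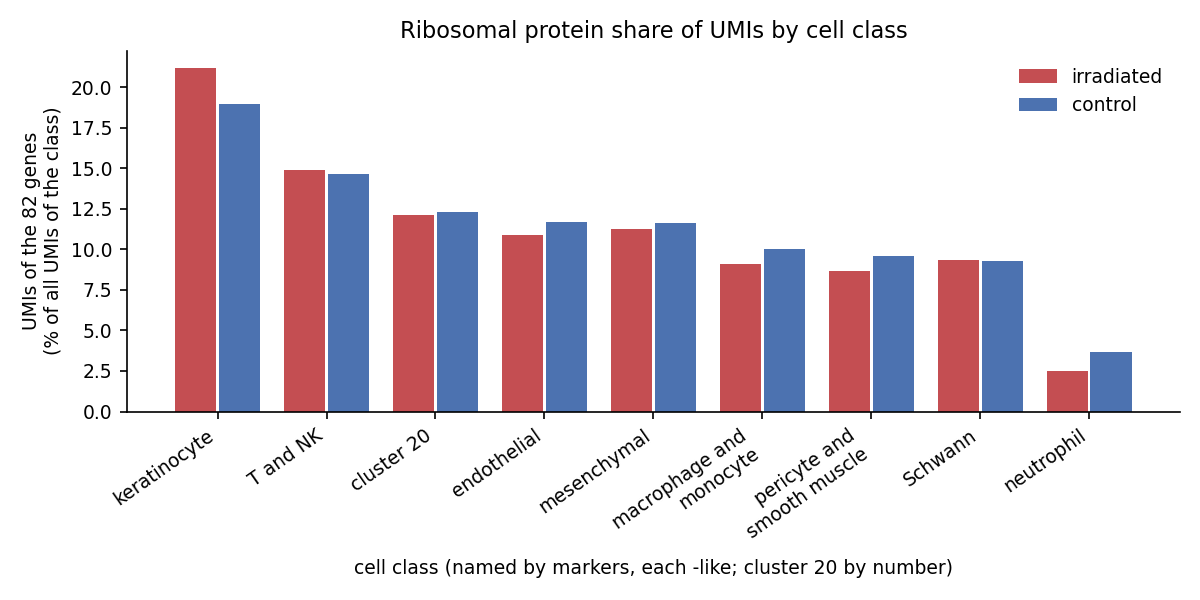
Share of all UMIs (%) that came from the 82 ribosomal protein genes in 9 cell classes, irradiated library left and control library right; each bar is 1 library. Keratinocyte-like cells are highest at 21.2% and 19.0%, and neutrophil-like cells lowest at 2.50% and 3.67%.

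Single genes were compared as their level per 1e6 summed UMIs of a class (CPM). A gene with 20 or more UMIs in the class is called higher or lower if the libraries differ 1.5-fold or more and equality is outside the interval. In keratinocyte-like cells 2 of 80 genes were higher, Rps19 and Rps28, and none was lower, against 7.14% higher and 6.87% lower of all 16370 genes tested. In mesenchymal-like cells only Rps27l of 81 was higher and none was lower, against 11.9% and 7.27% of 17147 genes. In endothelial-like cells Rps27l and Rpl39l of 81 were higher and none was lower, against 9.26% and 3.69% of 13234 genes. In macrophage and monocyte-like cells none of 82 was higher and only Rpl39l was lower, against 6.46% and 11.6% of 14234 genes. In neutrophil-like cells none of 81 was higher and 40 (49.4%) were lower, against 5.35% and 21.5% of 9423 genes. At 1.5-fold the share of ribosomal protein genes that were lower was above the background in neutrophil-like cells, on this scale, and both shares were below the background in the other 4 classes. That background holds every gene with at least 20 UMIs, so it is not matched to the level of the ribosomal protein genes. With a size rule of 25% in place of 1.5-fold, the higher and lower genes were 8 and 0 in keratinocyte-like (12.5% and 12.9% of all genes), 3 and 1 in mesenchymal-like (16.6% and 14.5%), 3 and 8 in endothelial-like (14.3% and 7.97%), 0 and 12 in macrophage and monocyte-like (10.5% and 21%) and 0 and 70 in neutrophil-like cells (7.41% and 31.1%). The lower share was then above the background in endothelial-like cells too, at 9.88% of the ribosomal protein genes. The median log2 ratio of the 82 genes was 0.18 in keratinocyte-like cells, -0.02 in mesenchymal-like, -0.08 in endothelial-like, -0.12 in macrophage and monocyte-like and -0.57 in neutrophil-like cells. The medians of all genes tested were -0.02, -0.03, 0.02, -0.12 and -0.31 in the same order of classes. Among genes outside the 82 at 200 CPM or more, the medians were -0.01, -0.08, -0.02, 0.04 and -0.11.

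**Figure D2:**
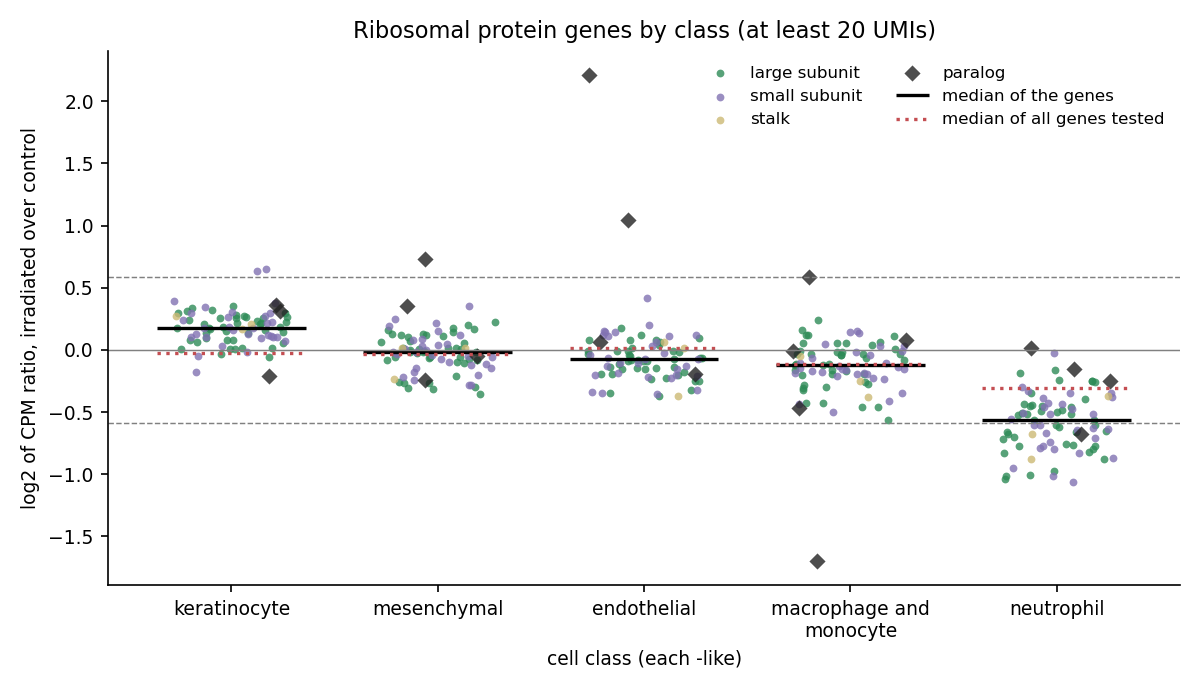
Log2 ratio of CPM, irradiated over control, for each ribosomal protein gene with at least 20 UMIs (1 point a gene, coloured by role) in 5 classes; the dashed lines mark 1.5-fold, the solid bar the median of these genes and the dotted bar the median of all genes tested. Most genes lie within 1.5-fold except in neutrophil-like cells, where the median is -0.57, and the paralog Rps27l lies apart in mesenchymal-like (0.73) and endothelial-like cells (1.05), as does Rpl39l, on few UMIs, in endothelial-like (2.21) and macrophage and monocyte-like cells (-1.70).

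Genes of both subunits were among the lower ones. The background in neutrophil-like cells was 21.5% of all genes tested lower, with a median log2 ratio of -0.31. The count over all roles on other scales follows in the next paragraph. In neutrophil-like cells 21 of 43 large-subunit genes, 16 of 31 small-subunit genes, 2 of 3 stalk genes and 1 of 4 paralogs tested were lower, with medians of -0.57, -0.60, -0.67 and -0.20. The genes with the lowest ratios there were Rps4x (254 CPM in irradiated and 530 CPM in control cells, log2 ratio -1.06), Rpl5, Rpsa, Rpl10a, Rpl14 and Rpl3. Rpsa, which encodes a small-subunit protein that also serves as a laminin receptor, had 214 CPM in irradiated and 432 CPM in control cells. At the other end Rps27 had 639 CPM in irradiated and 651 CPM in control cells (-0.03), and Rpl37, Rpl24, Rpl35a, Rpl23 and Rpl22l1 lay between -0.16 and -0.25. The class holds 2 clusters in unequal mixture: cluster 1, with 595 irradiated and 690 control cells, and cluster 5, marked by Ccl3 and Ccl4, with 674 irradiated and 149 control cells. The share of the 82 genes was 3.17% in irradiated and 3.84% in control cells of cluster 1, and 2.11% and 2.86% in cluster 5, so it was lower in the irradiated library within each cluster.

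The count of 40 lower genes in neutrophil-like cells was smaller on other scales. With ratios centred on the median gene of the class it was 7 of 81 (8.64%), against 8.81% of all genes on that scale. With the clusters weighted alike it was 14 of 81 (17.3%), against 15.3% of all genes. The count was thus near the background on both of these scales. RNA of other cells also moved with it: the summed level of 11 keratinocyte markers in neutrophil-like cells was 402 CPM in the irradiated and 1118 CPM in the control library, with 10 of the 11 lower. That of 10 mesenchymal markers was 180 CPM and 780 CPM, with 7 lower, and no marker of either list was at 0 in both libraries. That of 6 red cell markers was 878 CPM in the irradiated and 30.6 CPM in the control library. Median depth was 3146 UMIs in irradiated and 2108 UMIs in control cells. With cells of 2000 UMIs or more thinned to 2000, the share ratio was -0.56. This left out 166 irradiated and 373 control cells below that depth. Thinning leaves the expected share within a cell as it was. Among neutrophil-like cells of 1000 to 5000 UMIs the share was 2.20% in 944 irradiated and 3.28% in 740 control cells. Among those of 5000 to 15000 UMIs it was 2.64% in 286 irradiated and 4.58% in 91 control cells. The share was thus lower in the irradiated library within both ranges. The part of depth in the result was not tested beyond this. The part of the other cells' RNA in the result was not tested.

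Among ribosomal protein genes with at least 200 UMIs, Rps27l had the largest ratio in mesenchymal-like and in endothelial-like cells. In mesenchymal-like cells its level was 593 CPM in the irradiated and 358 CPM in the control library, a log2 ratio of 0.73 (0.70 to 0.76). In endothelial-like cells it was 585 CPM and 283 CPM (1.05, 0.97 to 1.12). Both pass the size rule. Pericyte and smooth muscle-like cells had 508 CPM in irradiated and 356 CPM in control cells (0.51), Schwann-like cells 498 CPM and 369 CPM (0.43), and keratinocyte-like cells 497 CPM and 387 CPM (0.36), which are below the size rule. Macrophage and monocyte-like cells had 294 CPM in irradiated and 297 CPM in control cells (-0.01), and cluster 20 had 378 CPM and 360 CPM (0.07). T and NK-like cells had 137 CPM and 155 CPM, and neutrophil-like cells 63.5 CPM and 101 CPM (-0.68, -0.91 to -0.44), with irradiated cells first. Taken as a share of the UMIs of the 82 genes, Rps27l had a log2 ratio of -0.12 in neutrophil-like, 0.78 in mesenchymal-like and 1.15 in endothelial-like cells. Markers of other cells moved in these classes too. The 12 macrophage markers summed to 329 CPM in irradiated and 106 CPM in control mesenchymal-like cells, with 12 higher, and the 8 neutrophil markers to 322 CPM and 59.5 CPM in endothelial-like cells, with 7 higher. Their part in the ratio was not tested. In both libraries the Rps27l level of macrophage and monocyte-like cells was below that of mesenchymal-like cells, and that of neutrophil-like cells below that of endothelial-like cells.

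The difference in Rps27l ran through most mesenchymal clusters and split the macrophage clusters. In mesenchymal clusters 2, 8, 9 and 16 its log2 ratio was 0.84, 0.78, 0.87 and 0.88, and in cluster 27, with 36 irradiated and 29 control cells, it was 0.05 (-0.45 to 0.56). In cluster 8 the level was 741 CPM in irradiated and 431 CPM in control cells, the highest irradiated level of the 20 clusters of the 5 classes. Keratinocyte clusters ranged from 0.14 in cluster 12, marked by Krt10 and Krt1, to 0.77 in cluster 15, marked by Krt79 and Krt15. Among macrophage and monocyte clusters, cluster 3, marked by Ccl8 and Mrc1, had 382 CPM in irradiated and 254 CPM in control cells (0.59). Cluster 4, marked by Ctsk and Mmp9, had 391 CPM and 488 CPM (-0.32), and cluster 7, marked by Arg1 and Mmp12, 241 CPM and 332 CPM (-0.46), while clusters 0 and 14 were at 0.05 and 0.00. The ratio near 0 of the whole class is thus a sum over clusters that lie on both sides of equality. Within neutrophil-like cells, cluster 1 had 63.7 CPM in irradiated and 110 CPM in control cells (-0.79), while the ratio in cluster 5 was 0.03 (-0.54 to 0.65).

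**Figure D3:**
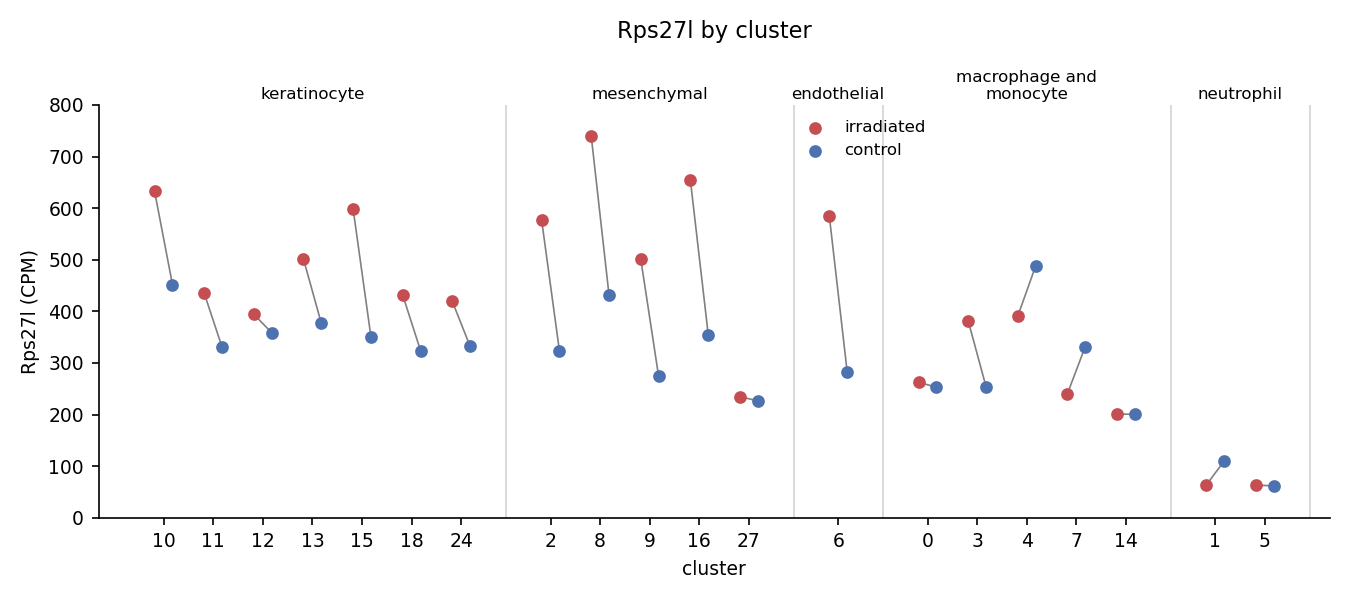
Level of Rps27l (CPM of the summed UMIs) in each cluster of the 5 classes, irradiated library left and control library right, joined by a line; each point is 1 cluster in 1 library. Mesenchymal clusters 2, 8, 9 and 16 and endothelial cluster 6 are higher in the irradiated library, and macrophage clusters 4 and 7 run the other way.

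Many other p53 targets were higher in the irradiated library in the same classes. Of all genes tested, 11.9% were higher in mesenchymal-like, 7.14% in keratinocyte-like, 9.26% in endothelial-like and 6.46% in macrophage and monocyte-like cells. In neutrophil-like cells 5.35% of all genes were higher and 21.5% lower. Of 20 listed p53 targets other than the 82 genes, 13 were higher and none lower in mesenchymal-like cells (median log2 ratio 0.99), 13 higher in keratinocyte-like (0.95), 16 higher in endothelial-like (1.12), and 6 higher and 1 lower in macrophage and monocyte-like cells (0.38). In neutrophil-like cells none of 17 tested was higher and 4 were lower (0.03). The lower ones, named after their values were seen, were Perp in the macrophage and monocyte-like class and Trp53inp1, Ei24, Btg2 and Perp in the neutrophil-like class; Perp is also on the keratinocyte marker list. Cdkn1a, which encodes the cell cycle inhibitor p21, had 345 CPM in irradiated and 36.7 CPM in control mesenchymal-like cells (3.23), and 673 CPM and 393 CPM in macrophage and monocyte-like cells (0.78). Of 3147 genes with at least 200 UMIs in each of the 5 classes, those whose 5 ratios lay nearest to those of Rps27l were Celf2, Hes1, Btg2, Antxr2 and Dmxl2, with root mean square differences between 0.16 and 0.25 on the log2 scale. Btg2, an antiproliferative gene and itself on the p53 list, had ratios of 0.52 in mesenchymal-like, 0.69 in endothelial-like and -0.70 in neutrophil-like cells.

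Rps27, the main copy, stayed within 1.5-fold in all 5 classes. It had 733 CPM in irradiated and 631 CPM in control mesenchymal-like cells (0.22), 885 CPM and 797 CPM in endothelial-like cells (0.15), and 764 CPM and 690 CPM in macrophage and monocyte-like cells (0.15). In keratinocyte-like cells it had 1546 CPM in irradiated and 1174 CPM in control cells (0.40), where Rps27l was at 0.36. Its ratio in macrophage clusters 4 and 7 was 0.13 and 0.29, where that of Rps27l was -0.32 and -0.46.

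Rpl22l1, the paralog of the large-subunit gene Rpl22, had a ratio below that of its main copy in some classes and above it in others. RPL22 protein is known in mouse cells to repress Rpl22l1. Rpl22l1 had 176 CPM in irradiated and 243 CPM in control macrophage and monocyte-like cells (-0.47, -0.53 to -0.41), where Rpl22 had 762 CPM and 769 CPM (-0.01). In mesenchymal-like cells Rpl22l1 had 566 CPM and 669 CPM (-0.24), and Rpl22 832 CPM and 795 CPM (0.07). In keratinocyte-like cells Rpl22l1 had 786 CPM in irradiated and 632 CPM in control cells (0.32), and Rpl22 1720 CPM and 1539 CPM (0.16). In neutrophil-like cells the ratios were -0.25 for Rpl22l1 and -0.70 for Rpl22, and of all these only that of Rpl22 in neutrophil-like cells reaches 1.5-fold. Among keratinocyte clusters Rpl22l1 ranged from -0.02 in cluster 13 to 0.79 in cluster 11, marked by Krt5, Krt14 and Col17a1, where it had 864 CPM in irradiated and 501 CPM in control cells. In all 5 macrophage and monocyte clusters it was below 0, from -0.16 in cluster 14 to -0.69 in cluster 7.

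The other 3 paralogs gave few UMIs. Rpl7l1, whose protein acts in the making of the large subunit, had ratios near 0 in mesenchymal-like (-0.05), endothelial-like (0.06), macrophage and monocyte-like (0.08) and neutrophil-like cells (0.01), each with an interval that includes 0. In keratinocyte-like cells it had 59.5 CPM in irradiated and 68.9 CPM in control cells (-0.21). Rpl39l, known for its role in the testis, had 142 UMIs in irradiated and 395 UMIs in control mesenchymal-like cells (8.34 and 6.52 CPM). It had 29 and 11 UMIs in endothelial-like cells (log2 ratio 2.21, 1.17 to 3.36) and 23 and 48 UMIs in macrophage and monocyte-like cells (-1.70, -2.48 to -0.95), irradiated first. Mesenchymal markers in macrophage and monocyte-like cells summed to 125 CPM in the irradiated and 522 CPM in the control library, with 9 of 10 lower, and their part in the Rpl39l ratio was not tested. Rpl3l, known as the form of Rpl3 in heart and skeletal muscle, had more UMIs in neutrophil-like cells than in each of the other 4 classes, 52 in irradiated and 25 in control cells (8.92 and 9.95 CPM). The 8 muscle markers summed to 12.7 CPM in irradiated and 13.9 CPM in control neutrophil-like cells.

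Rpl5, Rpl11, Rpl23 and Rpl26 each stayed within 1.5-fold in the 4 classes other than neutrophil-like cells. Rpl5 had 1003 CPM in irradiated and 1205 CPM in control mesenchymal-like cells (-0.26), and 628 CPM and 846 CPM in macrophage and monocyte-like cells (-0.43), while in neutrophil-like cells it was lower, at 138 CPM and 283 CPM (-1.04). Rpl11, its partner on MDM2, had ratios of -0.07 in mesenchymal-like and -0.12 in macrophage and monocyte-like cells. Rpl23, which also binds MDM2, had 0.00 and -0.12, and Rpl26, which raises translation of p53 mRNA in human cells, 0.14 and -0.04. In endothelial-like cells the ratios were -0.19 for Rpl5, -0.22 for Rpl11, -0.15 for Rpl23 and 0.10 for Rpl26. In neutrophil-like cells Rpl11 was lower (-0.76), and Rpl23 (-0.25) and Rpl26 (-0.51) did not reach 1.5-fold. In keratinocyte-like cells the ratios were 0.01 for Rpl5, 0.08 for Rpl11, 0.17 for Rpl23 and 0.26 for Rpl26. Rps6, whose protein is phosphorylated downstream of mTORC1, had 868 CPM in irradiated and 886 CPM in control mesenchymal-like cells (-0.03), and 165 CPM and 301 CPM in neutrophil-like cells (-0.87). Of the stalk genes, whose proteins recruit the elongation factors, Rplp0 was at -0.23 in mesenchymal-like and -0.37 in endothelial-like cells, while Rplp1 was at 0.01 and 0.06 and Rplp2 at 0.02 and 0.02.

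Within the 82 genes the same names recurred at the ends of the order. Rps19, the gene most often mutated in human Diamond-Blackfan anaemia, had 3096 CPM in irradiated and 1976 CPM in control keratinocyte-like cells (0.65), 1640 CPM and 1284 CPM in mesenchymal-like cells (0.35), and 1721 CPM and 1291 CPM in endothelial-like cells (0.41). It had 1234 CPM and 1239 CPM in macrophage and monocyte-like cells (-0.01) and 225 CPM and 286 CPM in neutrophil-like cells (-0.35). Rps28, also of the small subunit, had 1104 CPM in irradiated and 712 CPM in control keratinocyte-like cells (0.63), and ratios of 0.25, 0.12, 0.13 and -0.34 in mesenchymal-like, endothelial-like, macrophage and monocyte-like and neutrophil-like cells. Both were above equality in each of the 7 keratinocyte clusters, from 0.20 to 0.69 for Rps19 and from 0.33 to 0.68 for Rps28. At the low end Rps2, of the small subunit too, had 5867 CPM in irradiated and 6629 CPM in control keratinocyte-like cells (-0.18), 3170 CPM and 3860 CPM in mesenchymal-like cells (-0.28), and 1600 CPM and 2261 CPM in macrophage and monocyte-like cells (-0.50). Rpl3, whose protein reaches the peptidyl transferase centre, was at 0.01, -0.35, -0.32, -0.56 and -0.97 in keratinocyte-like, mesenchymal-like, endothelial-like, macrophage and monocyte-like and neutrophil-like cells. Rpl14, Rps4x, Rpl10a, Rps3a1 and Rpl15 were among the 6 lowest of the genes with at least 200 UMIs in at least 1 of the 5 classes, and Rps27, Rpl35a, Rpl38, Rpl24 and Rps24 among the 6 highest.

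The order went with the length of the protein-coding sequence. Across the 77 genes other than paralogs, whose coding sequences run from 138 to 1257 nucleotides, Spearman's correlation of coding length with the log2 ratio was -0.68 in keratinocyte-like, -0.68 in mesenchymal-like, -0.63 in endothelial-like, -0.68 in macrophage and monocyte-like and -0.55 in neutrophil-like cells. These are correlations across genes of the same 2 libraries, which are not independent replicates, so no p is given. In mesenchymal-like cells the 19 genes in the lowest quartile of coding length (under 375 nucleotides) had a median ratio of 0.11, and the 19 in the highest quartile (over 633 nucleotides) one of -0.21. In macrophage and monocyte-like cells these medians were 0.03 and -0.32, in endothelial-like cells 0.02 and -0.23, in keratinocyte-like cells 0.27 and 0.07, and in neutrophil-like cells -0.45 and -0.80. The 4 smaller classes gave correlations between -0.63 and -0.74, and the 20 clusters of the 5 classes between -0.42 and -0.75. By its annotated coding length of 636 nucleotides, Rps19 fell in the longest quartile. Whether this length fits the Rps19 mRNA captured here was not tested. Its ratio was far above the median of that quartile in keratinocyte-like (0.65 against 0.07), mesenchymal-like (0.35 against -0.21) and endothelial-like cells (0.41 against -0.23). This gradient was looked for after the ratios had been seen.

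The same correlation was also computed for genes outside the 82. Among other genes at 200 CPM or more with coding sequences of up to 1257 nucleotides, it was -0.09 in keratinocyte-like (377 genes), -0.04 in mesenchymal-like (396 genes), 0.07 in endothelial-like (415 genes), 0.02 in macrophage and monocyte-like (464 genes) and -0.04 in neutrophil-like cells (412 genes). For the short and the long of these other genes, split at the same lengths, the medians were 0.05 and -0.07 in mesenchymal-like, 0.03 and -0.09 in keratinocyte-like and 0.04 and -0.08 in neutrophil-like cells. They were -0.00 and -0.03 in endothelial-like and 0.04 and 0.05 in macrophage and monocyte-like cells. With the whole mRNA length in place of the coding length, the correlation over the 77 genes was between -0.35 and -0.44 in the 5 classes. The annotated mRNA lengths included 5179 nucleotides for Rps15a and 3706 for Rps20, with coding sequences of 390 and 357. Whether such lengths fit the mRNAs captured here was not tested.

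**Figure D4:**
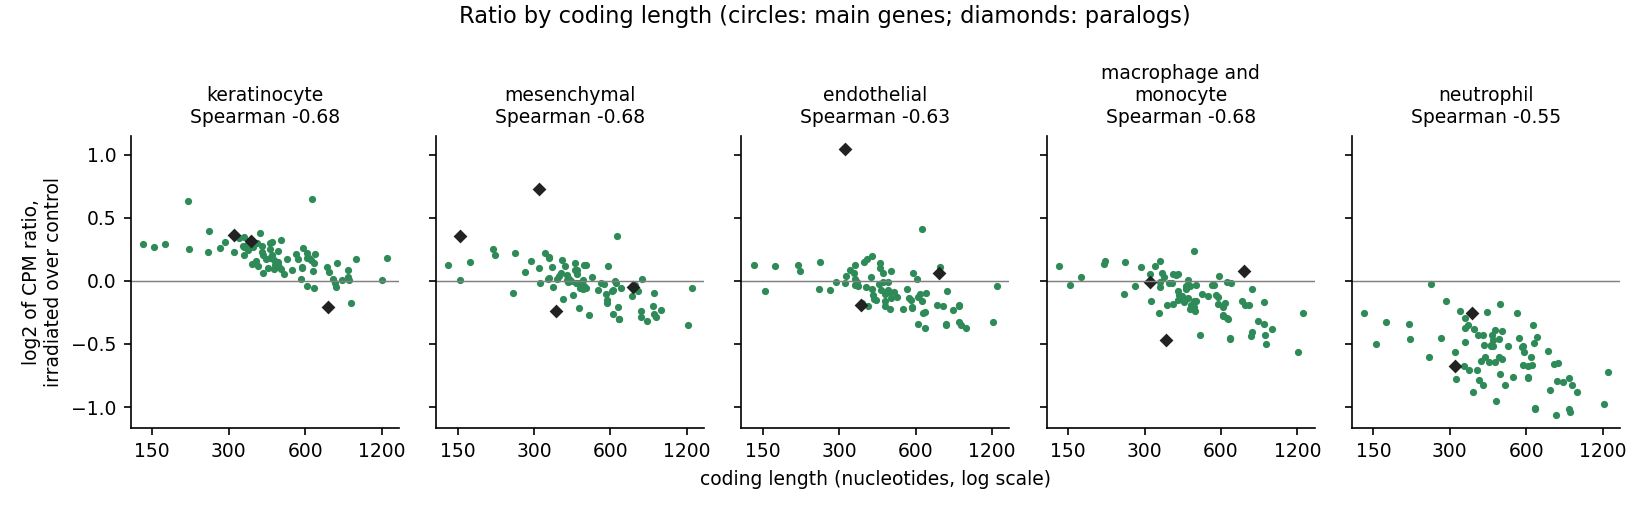
Log2 ratio of CPM, irradiated over control, against coding length in nucleotides (log scale) for ribosomal protein genes with at least 200 UMIs in each of 5 classes; circles are the 77 main genes, diamonds the paralogs, and Spearman's correlation is that of the circles. The cloud slopes down in every panel, with correlations from -0.55 to -0.68, while its height differs between classes.

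Cell classes also differed in which ribosomal protein mRNAs made up the total. For this, each gene was taken as a share of the UMIs of the 82 genes, averaged over the libraries on the log scale, for the 79 genes with at least 200 UMIs in each of the 5 classes. The median gene varied 1.45-fold between its highest and lowest class, and 7 genes varied more than 2-fold. Rps27 made up 2.56% of these UMIs in irradiated and 1.78% in control neutrophil-like cells, against 0.652% and 0.542% in mesenchymal-like cells. Rps9 made up 4.82% in irradiated and 4.69% in control neutrophil-like cells, against 1.48% and 1.62% in mesenchymal-like cells. Rps29 was highest in macrophage and monocyte-like cells (average 1.33%) and lowest in keratinocyte-like cells (0.576%). Rpl22l1 was highest in mesenchymal-like (0.538%) and lowest in macrophage and monocyte-like cells (0.217%). Rpl10a and Rpl3 were highest in keratinocyte-like (1.33% and 1.16%) and lowest in neutrophil-like cells (0.588% and 0.538%). The genes with the smallest spread were Rpl27a, Rpl8, Rps23, Rps15, Rpl39 and Rpl26, with ranges between 1.15-fold and 1.20-fold.

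**Figure D5:**
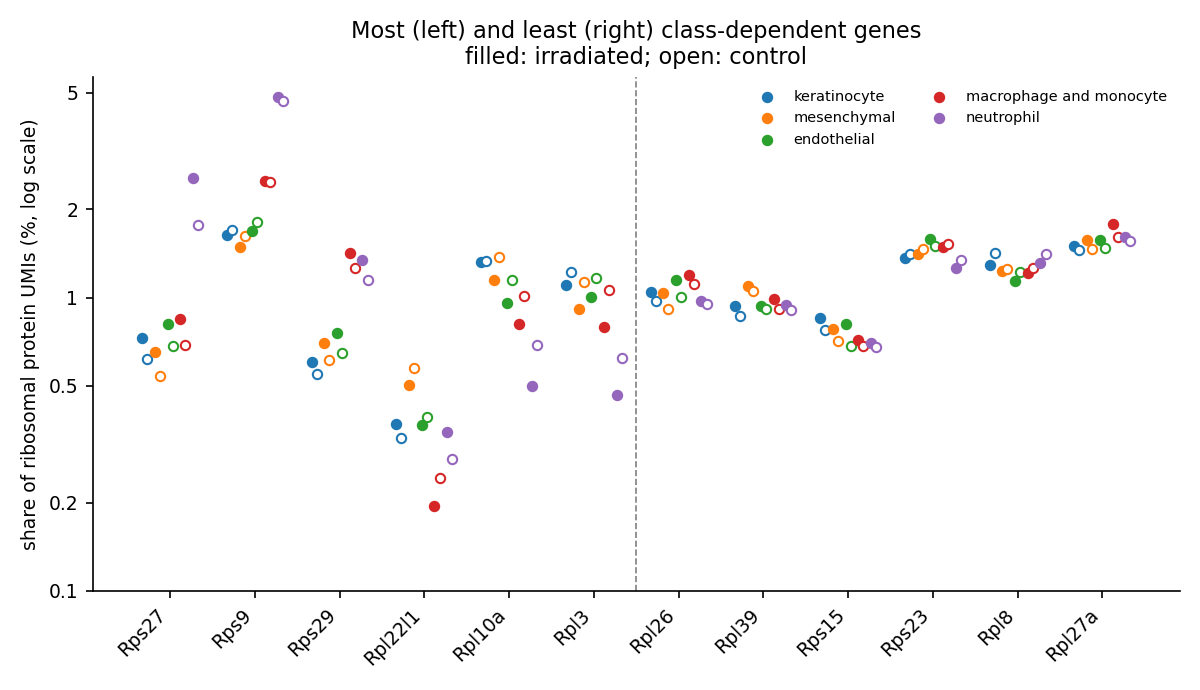
Share of ribosomal protein UMIs (%, log scale) held by the 6 genes that vary most (left) and the 6 that vary least (right) between 5 cell classes; filled points are the irradiated and open points the control library, with the irradiated point left. Rps27 and Rps9 are highest in neutrophil-like cells, at 2.56% and 4.82% in the irradiated library, and the class averages of the genes on the right keep within 1.20-fold.

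Other genes of the ribosome pathway were taken from fixed lists, counted by the same size rule. Of all genes tested, 11.9%, 7.14%, 9.26%, 6.46% and 5.35% were higher in mesenchymal-like, keratinocyte-like, endothelial-like, macrophage and monocyte-like and neutrophil-like cells. In the same order 7.27%, 6.87%, 3.69%, 11.6% and 21.5% were lower. No centred counts are given for these lists. Of 30 ribosome biogenesis genes, none was higher or lower in mesenchymal-like or keratinocyte-like cells, 1 was higher in endothelial-like cells, 3 were lower in macrophage and monocyte-like cells and 8 of 24 tested were lower in neutrophil-like cells. The first was Nop14 and the 3 others Wdr12, Rrp12 and Polr1e, named after their values were seen. Npm1, which encodes a nucleolar chaperone of ribosome assembly, had 390 CPM in irradiated and 541 CPM in control macrophage and monocyte-like cells (-0.47), and 59.5 CPM and 123 CPM in neutrophil-like cells (-1.05). Of 20 other TOP mRNAs of the translation machinery, 13 were lower in neutrophil-like cells and none passed in the other 4 classes, with medians of -0.19 in mesenchymal-like, 0.03 in keratinocyte-like, -0.19 in endothelial-like, -0.29 in macrophage and monocyte-like and -0.76 in neutrophil-like cells. Of these, Eef1a1, the elongation factor that brings aminoacyl-tRNA, had 3711 CPM in irradiated and 4437 CPM in control mesenchymal-like cells (-0.26). Rack1, a scaffold on the small subunit, had 1036 CPM and 1282 CPM there (-0.31). Fau, which encodes a ribosomal protein but carries no Rps name, had 2469 CPM in irradiated and 2315 CPM in control neutrophil-like cells (0.09), against a median of -0.57 for the 82 genes.

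Of 22 genes of mTORC1 and MYC control, 2 were higher in mesenchymal-like (Sesn2 and Deptor), 2 in keratinocyte-like (Sesn2 and Myc), 2 in endothelial-like (Sesn2 and Mycn) and none of 21 tested in macrophage and monocyte-like cells. In neutrophil-like cells 1 of 18 tested was higher (Ddit4) and 5 were lower (Rheb, Eif4ebp2, Larp4, Sesn3 and Mxd4). The background there, for this list and those below, is 5.35% higher and 21.5% lower of all genes tested. Sesn2, a p53 target whose protein restrains mTORC1, had 31.1 CPM in irradiated and 15.2 CPM in control keratinocyte-like cells (1.03). Myc, which drives ribosome production, had 101 CPM in irradiated and 63.8 CPM in control keratinocyte-like cells (0.66). Of 78 mitochondrial ribosomal protein genes, none passed in mesenchymal-like, keratinocyte-like or endothelial-like cells, 2 were lower in macrophage and monocyte-like cells (Mrps2 and Mrps5), and 2 were higher (Mrpl39 and Mrpl45) and 21 lower of 68 tested in neutrophil-like cells. Of 35 respiratory chain genes with short mRNAs, 1 was higher in mesenchymal-like and in keratinocyte-like cells (Ndufa1 in both) and 7 were lower in neutrophil-like cells, with medians of 0.17, 0.22, 0.19, 0.01 and -0.30 in mesenchymal-like, keratinocyte-like, endothelial-like, macrophage and monocyte-like and neutrophil-like cells. The medians of all genes tested were -0.03, -0.02, 0.02, -0.12 and -0.31 in that order. Of 20 mitosis genes, 8 were lower in mesenchymal-like, 6 in keratinocyte-like, 3 in endothelial-like (Ccnb2, Bub1b and Cenpf), 17 in macrophage and monocyte-like and 6 of 8 tested in neutrophil-like cells. With dividing cells left out, the share ratio of the 82 genes was 0.18 in keratinocyte-like, -0.08 in mesenchymal-like and -0.18 in endothelial-like cells.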

How the data were processed

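The deposited matrices hold raw UMI counts, not normalized by the authors. They come from Cell Ranger 5 and the mm10 build, per the submitters' processing notes (5.0.1 per the file headers). Barcodes with at least 500 genes, 1000 UMIs and at most 10% mitochondrial UMIs were kept. Scrublet marked 74 irradiated (1.03%) and 529 control cells (5.73%) as doublets, which were removed. Cells were clustered without the 82 genes in scanpy 1.11.5 (2000 variable genes, 30 components, 15 neighbours, Leiden resolution 1, Python 3.11.15). A cluster was named when at least 3 fixed markers and a mean log2 score of 3, set after the clusters were seen, marked it and no rival list exceeded 0.75 of that score. UMIs were summed per class and library. Share intervals are Clopper-Pearson and ratio intervals conditional Poisson. Only the ratio intervals were tried on simulated data. Those data were drawn as Poisson counts, so variation beyond counting error was not covered. UMIs that share a library are not independent replicates. Coding lengths come from GENCODE M21, also on that build.

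Named genes were the paralog pairs, Rpl5, Rpl11, Rpl23, Rpl26 and Rps6, the 6 highest and 6 lowest ratios per class among genes with at least 200 UMIs, the 6 most and 6 least variable shares across classes, and the 5 genes nearest to Rps27l. The genes and lists were chosen with earlier results of these data known. The alternatives tried were other cell filters, doublets kept, thinning to 2000 UMIs, other weights and denominators, centring, and no dividing cells. Others were clustering with the 82 genes not left out beforehand, and other size and UMI minimums.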

Additional observations from a re-analysis of the deposited data

Results flagged for a closer look

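The ratio of the ribosomal protein share was above equality in keratinocyte-like and below it in neutrophil-like cells, 0.713 apart on the log2 scale (0.16 and -0.55). Rpl39l differed by 3.91 between endothelial-like (2.21) and macrophage and monocyte-like cells (-1.70), on 29 irradiated and 11 control UMIs in the first class and 23 and 48 in the other. Rps27l differed by 1.72 between endothelial-like (1.05) and neutrophil-like cells (-0.68). With 1 library per group, none of these 3 differences between classes was tested.

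A ratio was also computed in unnamed clusters that enter no comparison. In cluster 25 (38 irradiated and 34 control cells), where the B cell and the T and NK cell lists both scored, the log2 ratio of the share was 0.138. In cluster 28, led by lipid synthesis genes such as Elovl4 and Scd1, it was 15.5% in 19 irradiated and 11.5% in 38 control cells (0.428). In cluster 22, the largest unnamed cluster, where the endothelial and the pericyte lists both scored, it went the other way, at 9.67% in 48 irradiated and 11.8% in 79 control cells (-0.29). These differences were not tested.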

How the results depend on the processing

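No paired analysis was possible because each group has 1 library and the labels give no replicate numbers. Values below run in the order keratinocyte-like, mesenchymal-like, endothelial-like, macrophage and monocyte-like, neutrophil-like cells, with classes left out where the value stayed within its counting interval. Log2 ratios of the share were 0.18, -0.016, -0.12, -0.023 and -0.24 centred on the median gene, 0.20, -0.072, -0.13, -0.18 and -0.57 with ribosomal protein and mitochondrial genes out of the denominator, 0.17, -0.046, -0.095, -0.13 and -0.53 at a mitochondrial limit of 20%, 0.17, -0.056, -0.12, -0.17 and -0.52 with a stricter cell filter, and 0.18, -0.079, -0.18, -0.12 and -0.58 without dividing cells. They were 0.14 (keratinocyte), 0.031 (mesenchymal), -0.20 (macrophage) and -0.34 (neutrophil) with clusters weighted alike, which cannot be made for the single endothelial cluster. They were 0.13, -0.094, -0.15 and -0.60 for all but endothelial-like cells with each cell weighted alike, 0.17, -0.079, -0.11 and -0.60 for all but macrophages with doublets kept, and 0.13, -0.094, -0.12 and -0.16 for all but neutrophils when thinned. With the 82 genes open to choice as variable genes they were -0.044 (mesenchymal) and -0.47 (neutrophil). In that run 0 of the 82 were chosen, so clustering on them was not tried. The median gene ratio was 0.019, -0.0022 and -0.26 in mesenchymal, macrophage and neutrophil cells when centred, and 0.063 and -0.38 in mesenchymal and neutrophil cells with clusters weighted alike.

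Counts of higher genes became 8 (keratinocyte) and 3 (mesenchymal) with the 25% size rule, 1 (keratinocyte) with clusters weighted alike, and 1 (endothelial) with at least 200 UMIs, when thinned, or without dividing cells. Counts of lower genes with the 25% rule were 1 (mesenchymal), 8 (endothelial), 12 (macrophage) and 70 (neutrophil). In neutrophils that count was 7 centred and 14 with clusters weighted alike (near the share of all genes on each scale), in macrophages 0 with at least 200 UMIs and 2 with clusters weighted alike, the other denominator or the stricter filter, and it was 1 in keratinocytes (each cell weighted alike, limit of 20%, no UMI minimum), mesenchymal cells (clusters weighted alike) and endothelial cells (thinned). The causes were not tested. No called value changed sign. The correlation with coding length, added after seeing the data, stayed below 0 in 39 of 39 values (-0.76 to -0.50). Rpl39l and Rpl3l are limited by their few UMIs.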
